A study of Mus musculus with 6 samples.

Results

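The genes described here encode collagens and other proteins of the extracellular matrix, with the enzymes that modify and crosslink them. They were chosen by name, with earlier results of these data known, as a list of 42 genes. Of these, 39 had values among the 14912 gene symbols measured. Lum, Eln and Cthrc1 were not analysed here. The genes were sorted by role into fibrillar collagens, collagen VI, basement membrane, proteoglycans, collagen processing and crosslinking enzymes, elastic fibre and matrix glycoproteins. All samples were bone marrow cultures of wild-type C57BL/6J mice, labelled as dendritic cells and titled tol_DC. They were grown with FLT3 ligand at 50 ng/ml, renewed on day 7. Midkine cultures (n = 3) were given human midkine, a secreted cytokine that binds heparin, as recombinant protein at 10 ng/ml for the final 2 days, and control cultures (n = 3) went without it. RNA was counted by 3' end sequencing, and each library's read counts had been divided by its size factor, which gives the normalised read counts used below. Whether replicates are separate mice or cultures is not labelled, so each p-value reflects only how far these 6 samples spread, which can be technical scatter.

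The extracellular matrix is made mainly by fibroblasts and other stromal cells, which also adhere and grow in bone marrow cultures. Fibrillar collagens are secreted as procollagen, trimmed outside the cell and crosslinked through lysines by lysyl oxidases, while type IV collagen, laminins, nidogens and perlecan form the sheets of the basement membrane. Haematopoietic cells express few of these genes, although macrophages can make fibronectin and monocytes versican.

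Midkine libraries held 5685055 to 6453768 reads and control libraries 5089338 to 5532055. Mitochondrial ribosomal RNA took 18.09% to 20.92% of the reads in midkine libraries and 9.33% to 9.86% in control libraries. Gm42418, also counted as ribosomal RNA below, took 7.49% to 9.58% in midkine and 5.89% to 11.96% in control libraries. Counts on a scaling without these rows are given below, but their part in causing the matrix results was not tested. The dendritic cell genes Cd74, H2-Aa, Flt3 and Zbtb46 were read in every library. In such whole-culture RNA, more cells of a type and more RNA per cell cannot be told apart.

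Most matrix genes were higher with midkine. In a limma fit across 11844 genes, 37 of the 39 matrix genes passed an adjusted p of 0.05, as did 42.7% of all genes tested. Of the matrix genes 36 rose and 1 fell, where 20.9% of all genes tested rose and 21.8% fell. The rise was at least 2-fold for 20 of them, against 6.22% of all genes tested, and no matrix gene fell by that much, against 3.84%. The median log2 fold change of the 39 genes was 1.06, and that of all genes tested was -0.01. All 3 midkine libraries lay above all 3 control libraries for 36 matrix genes (25.1% of all genes tested) and below them for 2 (26.2% of all genes tested); for Tnc the groups overlapped. Scaled to total counts, the median of all genes moved to -0.27, and 32 matrix genes rose and 2 fell at a median of 0.81, where 10.8% of all genes tested rose and 40.7% fell. On that scale the rise was at least 2-fold for 11 matrix genes, not 20, against 3.74% of all genes tested. With the ribosomal RNA rows (mt-Rnr1, mt-Rnr2 and Gm42418) left out of the totals, 36 matrix genes rose and 1 fell, at a median of 0.99. Of the 11856 genes tested that way 2021 rose and 3180 fell, at a median of -0.09. In edgeR 36 matrix genes rose and 1 fell (21.8% and 21.7% of all genes), in DESeq2 36 rose and 0 fell (17.5% and 17.1%), and in limma without a variance trend 34 rose and 0 fell (17.9% and 17.4%). At an unadjusted p under 0.05, 1 matrix gene, Col6a2, was lower in each of these 3 fits, none of them scaled to total counts.

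**Figure D1:**
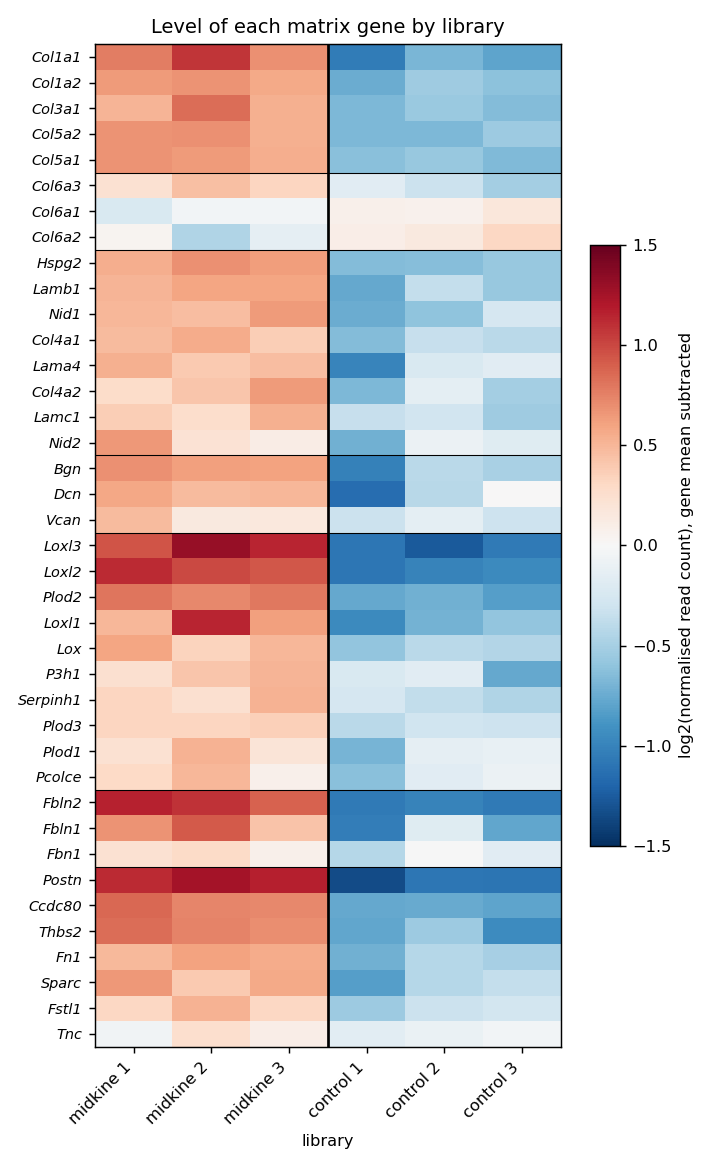
Level of each of the 39 matrix genes (rows, grouped by role) in the 3 midkine and 3 control libraries (columns), as log2(normalised read count) with the gene's mean over the 6 libraries subtracted. Most rows are above their mean in all 3 midkine libraries, Col6a1 and Col6a2 are lower in the midkine than in the control libraries, and control 1 holds the lowest control value for 29 of the 39 genes.

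The replicates of a group lay close together, with a median coefficient of variation of 7.57% in midkine and 9.76% in control cultures. Among the control libraries replicate 1 was the lowest for 29 of the 39 genes, and replicates 2 and 3 for 2 and 8. Without control replicate 1, 35 matrix genes rose and 1 fell, against 19.4% and 19.1% of all genes tested.

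The 5 fibrillar collagen genes, which encode the chains of the banded fibrils of connective tissue, all rose and by at least 2.36-fold. Col1a1, the alpha 1 chain of type I collagen, stood at 10539, 13033 and 9959 normalised read counts in midkine cultures 1 to 3, against 3005, 3855 and 3595 in control cultures. The lowest midkine value was well above the highest control value, and the change was 3.20-fold (log2 fold change 1.68, SE 0.10, limma adjusted p = 3.1e-13). Col1a2, the alpha 2 chain, which lies on chromosome 6 from 4504814 to 4541544 of GRCm38, had 11289, 11513 and 10686 in midkine cultures and 4327, 5002 and 4721 in control cultures. Its rise was 2.39-fold (limma adjusted p = 1.3e-12), without overlap of the groups. All 5 still rose when scaled to total counts, at a median log2 fold change of 1.00, and 1 of them by at least 2-fold.

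Type III and type V collagen genes moved by nearly the same fold as Col1a2. Col3a1, the single chain of type III collagen, had 859, 1073 and 867 normalised read counts in midkine cultures and 377, 407 and 384 in control cultures (2.38-fold, limma adjusted p = 4.1e-11). Col5a1 averaged 958 ± 40.5 in midkine and 406 ± 12.6 in control cultures (SD, n = 3 each), a log2 fold change of 1.24. Col5a2 averaged 995 ± 58.7 in midkine and 416 ± 22.1 in control cultures, a log2 fold change of 1.25. Both encode chains of type V collagen, which nucleates type I fibrils. Col3a1 and Col5a2 are neighbours on chromosome 1, on opposite strands and 24614 bases apart.

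**Figure D2:**
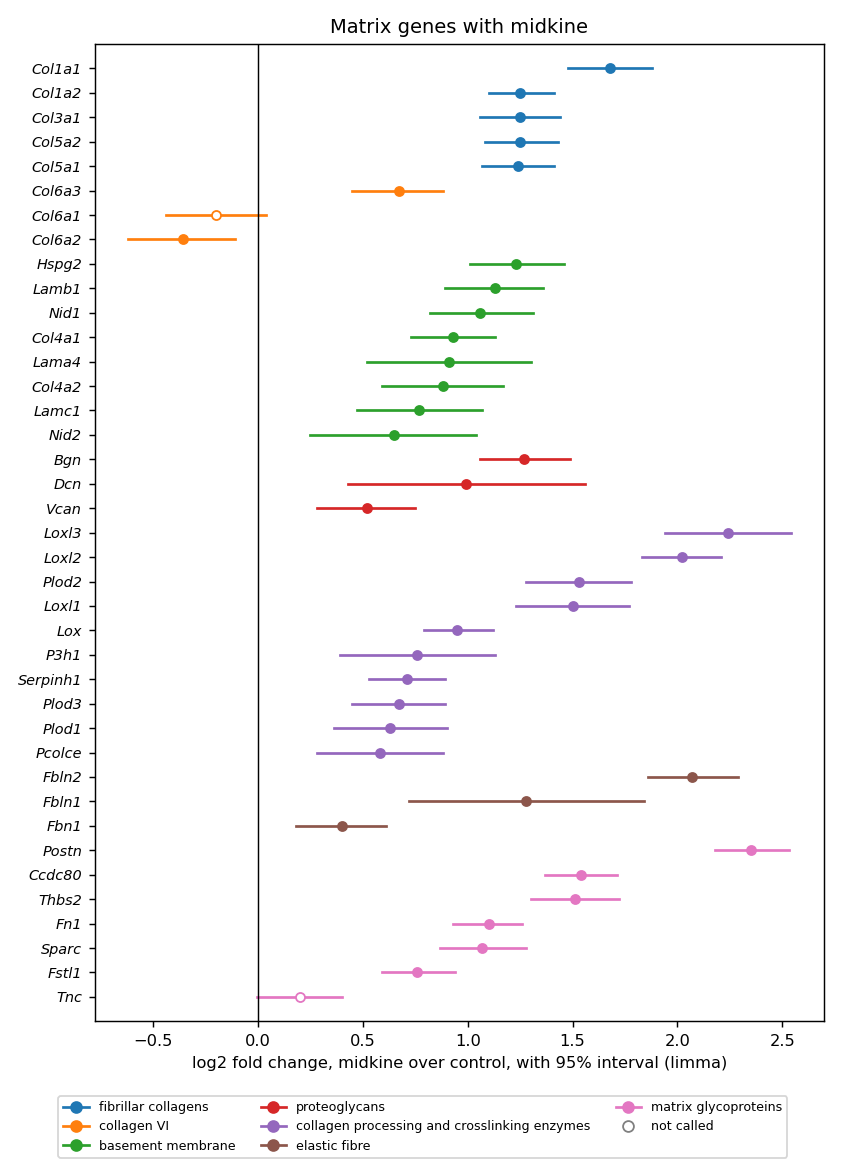
Log2 fold change of each of the 39 matrix genes, midkine over control (n = 3 each), with its 95% interval from limma, coloured by role; open circles were not called at an adjusted p under 0.05. The fibrillar collagens lie between 1.24 and 1.68, Col6a1 and Col6a2 lie left of 0, and Postn has the largest value, 2.35.

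The 3 chains of collagen VI, a collagen of beaded filaments around cells, split. Col6a3 rose 1.59-fold (limma adjusted p = 9.8e-06), with 383, 445 and 410 normalised read counts in midkine cultures against 291, 260.3 and 229 in control cultures. Col6a1 had 141, 160.4 and 160.4 in midkine cultures and 174, 172 and 186 in control cultures. Its groups did not overlap, yet it was not called (log2 fold change -0.20, 95% interval -0.44 to 0.04, limma adjusted p = 0.167). Col6a2, on chromosome 10 from 76595762 to 76623630 and beside Col6a1, had 201, 143 and 179 in midkine cultures and 209.7, 216 and 242 in control cultures. It fell by 0.36 on the log2 scale (95% interval -0.62 to -0.11, limma adjusted p = 0.0194), the single fall among the 39 genes.

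Col6a2 was not called without midkine replicate 2 (log2 fold change -0.23, limma adjusted p = 0.138), without control replicate 3 (-0.30, limma adjusted p = 0.0973), in DESeq2 (-0.35, adjusted p = 0.0546) or in limma without a variance trend (-0.36, adjusted p = 0.0920). Over 18 alternative fits the adjusted p of Col6a2 lay between 1.6e-04 and 0.138. Scaled to total counts, Col6a1 fell too (log2 fold change -0.46, or -0.20 in the fit described above; adjusted p = 0.00338, with a range over 18 alternatives from 0.00338 to 0.403 in limma, edgeR and DESeq2).

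All 8 basement membrane genes rose, by a median log2 fold change of 0.92. Col4a1, the alpha 1 chain of network-forming type IV collagen, had 568, 603 and 529.7 normalised read counts in midkine cultures and 261, 322 and 311 in control cultures (1.91-fold, limma adjusted p = 2.2e-08). Its partner Col4a2 had 166, 183 and 213 in midkine cultures and 86.0, 123 and 95.9 in control cultures (1.84-fold, limma adjusted p = 1.4e-05). Both genes start head to head on chromosome 8, where their annotated 5' ends overlap by 22 bases on opposite strands.

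Hspg2, which encodes perlecan, a heparan sulfate proteoglycan, had the largest rise of the basement membrane genes. It averaged 292 ± 15.1 normalised read counts in midkine and 124 ± 3.89 in control cultures (SD, n = 3 each; log2 fold change 1.23, SE 0.11, limma adjusted p = 1.3e-09). The laminin chain genes Lamb1 (2.18-fold), Lama4 (1.88-fold) and Lamc1 (1.71-fold) rose, as did Nid1 (2.09-fold), whose product links laminin to type IV collagen. Nid2, the other nidogen gene, had 100.3, 74.2 and 68.6 in midkine cultures and 38.7, 59.7 and 56.3 in control cultures. Its rise of 0.65 on the log2 scale (limma adjusted p = 0.00785) was not called without midkine replicate 1 (0.49, adjusted p = 0.0724), without control replicate 1 (0.46, adjusted p = 0.0563), scaled to total counts (0.39) or without a variance trend, with adjusted p values from 0.00357 to 0.0968 over 18 alternatives. With ribosomal RNA rows left out of the totals all 8 basement membrane genes were called higher. Exons of Nid2 overlap those of Rtraf on the other strand, and no source used here gives the strand setting of the counting.

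The 3 measured proteoglycan genes rose. Bgn, a small leucine-rich proteoglycan that binds collagen, on chromosome X from 73483602 to 73495933, had 7752, 7421 and 7370 normalised read counts in midkine cultures and 2385, 3648 and 3458 in control cultures (2.42-fold, limma adjusted p = 3.7e-10). Dcn, its relative decorin, which binds fibrils of type I collagen, had 37.2, 34.8 and 35.3 in midkine cultures and 11.3, 18.7 and 25.0 in control cultures (log2 fold change 0.99, SE 0.27, limma adjusted p = 0.00479). The control values of Dcn spread widely, but none reached the lowest midkine value. Vcan, the large chondroitin sulfate proteoglycan versican, rose less, with 277 ± 37.5 in midkine and 192 ± 13.7 in control cultures (SD, n = 3 each; limma adjusted p = 5.9e-04, log2 fold change 0.52). Scaled to total counts Vcan was at 0.26 and not called (adjusted p = 0.0691, the highest of 18 alternatives, which began at 1.2e-04). With ribosomal RNA rows left out of the totals all 3 proteoglycan genes were called higher.

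All 10 genes for collagen processing and crosslinking rose, and their rises differed widely, from 0.58 to 2.24 on the log2 scale. The largest rises were those of Loxl3 and Loxl2, which belong to the lysyl oxidases, copper enzymes that start the crosslinks of collagen and elastin. Loxl3 had 180.3, 233 and 208 normalised read counts in midkine cultures and 44.4, 39.2 and 44.8 in control cultures (4.73-fold, limma adjusted p = 3.9e-12); its exons overlap those of Htra2 on the other strand. Loxl2, on chromosome 14 from 69609068 to 69695834, had 787, 719 and 688 in midkine cultures and 171, 181 and 187 in control cultures (4.05-fold, limma adjusted p = 5.2e-15). Loxl1, which acts on elastic fibres, had 398, 619 and 433 in midkine cultures and 145, 172 and 187 in control cultures, a 2.83-fold rise in which midkine replicate 2 was the highest. Lox, the founding enzyme, averaged 4894 ± 423 in midkine and 2529 ± 172 in control cultures (SD, n = 3 each; 1.93-fold, limma adjusted p = 4.6e-10).

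The lysyl hydroxylases act before crosslinking, inside the cell. Plod2, which hydroxylates lysines in the telopeptides at the ends of collagen chains, had 239, 225 and 236 normalised read counts in midkine cultures and 80.3, 83.0 and 77.1 in control cultures (2.89-fold, limma adjusted p = 1.6e-10). The other two hydroxylases rose less, Plod3 by 1.59-fold and Plod1 by 1.55-fold. Serpinh1, the collagen chaperone HSP47 of the endoplasmic reticulum, averaged 1179 ± 120 in midkine and 718 ± 49.8 in control cultures (SD, n = 3 each; 1.64-fold, limma adjusted p = 2.4e-07). P3h1, a prolyl 3-hydroxylase, rose 1.69-fold. Pcolce, which enhances the removal of the procollagen C-propeptide, rose 1.50-fold (limma adjusted p = 0.00239), or 0.32 on the log2 scale and not called when scaled to total counts (adjusted p = 0.0865, the highest of 18 alternatives, which began at 4.1e-04). With ribosomal RNA rows left out of the totals all 10 processing and crosslinking genes were called higher. Exons of Plod3 overlap Znhit1, and those of Plod2 and Pcolce overlap predicted genes, on the other strand.

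The 3 measured elastic fibre genes rose to very different extents. Fbln2, a fibulin that binds fibronectin and elastic fibre proteins, had 571, 542 and 471 normalised read counts in midkine cultures and 123, 128 and 123 in control cultures (4.20-fold, limma adjusted p = 2.4e-14). Fbln1 averaged 37.5 ± 6.36 in midkine and 15.1 ± 4.80 in control cultures (SD, n = 3 each; 2.43-fold, limma adjusted p = 4.6e-04). Fbn1, which encodes fibrillin 1, the main protein of microfibrils, had 457, 474 and 412 in midkine cultures and 290.0, 388 and 347 in control cultures. Its change was small, 0.40 on the log2 scale (95% interval 0.18 to 0.61, limma adjusted p = 0.00328). Scaled to total counts it was 0.14 and not called (adjusted p = 0.327, the highest of 18 alternatives, which began at 6.9e-04), and it was also not called without a variance trend (adjusted p = 0.0571). With ribosomal RNA rows left out of the totals all 3 elastic fibre genes were called higher.

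Of the 7 measured matrix glycoprotein genes 6 rose. Postn encodes periostin, which binds collagen and supports its crosslinking, and lies on chromosome 3 from 54361109 to 54391037. It had 1819, 1981 and 1868 normalised read counts in midkine cultures and 329, 393 and 389.8 in control cultures, the largest change of the 39 genes (5.10-fold, 95% interval 2.18 to 2.53 on the log2 scale, limma adjusted p = 5.9e-17). Ccdc80, a secreted matrix protein, had 1196, 1095 and 1087 in midkine cultures and 388, 389 and 382 in control cultures (2.90-fold, limma adjusted p = 7.4e-14). Thbs2, thrombospondin 2, which modulates contacts between cells and matrix, averaged 642 ± 32.9 in midkine and 226 ± 31.5 in control cultures (SD, n = 3 each; 2.85-fold, limma adjusted p = 6.9e-12).

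Fibronectin and SPARC lay near the middle of the list. Fn1, fibronectin, on which collagen fibrils are assembled, had 5862, 6390.0 and 6189.5 normalised read counts in midkine cultures and 2555, 3114 and 2967 in control cultures (2.14-fold, limma adjusted p = 3.2e-11). Sparc, a collagen-binding glycoprotein, had 12557, 10538 and 11952 in midkine cultures and 4526, 5990 and 6253 in control cultures (2.10-fold, limma adjusted p = 2.1e-09). Fstl1, a secreted relative of SPARC, rose 1.69-fold. Tnc, tenascin C, a large glycoprotein that weakens cell adhesion, had 348, 430 and 387 in midkine cultures and 324, 337 and 351 in control cultures. The groups of Tnc overlapped and it was not called (log2 fold change 0.20, 95% interval -0.0026 to 0.40, limma adjusted p = 0.105). It was called at 0.27 without midkine replicate 1 (adjusted p = 0.0410) and was at -0.06 scaled to total counts (adjusted p = 0.673), the lowest and highest of 18 alternatives.

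Promoter windows of 4 genes, picked after they were searched, are shown because the genes moved by different amounts while the windows share a motif. RefSeq windows on GRCm38.p6 were matched for 26 of the 39 genes (31 windows), and the 250 bases before each start were searched on both strands for 5 motifs. These were the CCAAT box, the TATA box spelled TATAAA, the GC box spelled GGGCGG, the AP-1 motif spelled TGANTCA and the TEAD motif spelled GGAATG. Capitals mark every match, and the windows are chr3:54360857-54361106 (plus strand) for Postn, chr17:14694263-14694512 (minus strand) for Thbs2, chr1:45311288-45311537 (plus strand) for Col3a1 and chr4:64047016-64047265 (minus strand) for Tnc.
Postn: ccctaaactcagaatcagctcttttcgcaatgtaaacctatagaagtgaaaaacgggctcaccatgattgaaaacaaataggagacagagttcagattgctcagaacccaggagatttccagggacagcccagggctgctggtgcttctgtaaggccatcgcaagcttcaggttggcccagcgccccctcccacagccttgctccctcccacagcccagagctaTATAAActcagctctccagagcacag
Thbs2: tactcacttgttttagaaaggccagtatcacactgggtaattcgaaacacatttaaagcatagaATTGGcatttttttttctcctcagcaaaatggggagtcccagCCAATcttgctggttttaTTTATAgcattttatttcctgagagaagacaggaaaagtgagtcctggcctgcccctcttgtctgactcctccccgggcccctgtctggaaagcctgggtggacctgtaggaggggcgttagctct
Col3a1: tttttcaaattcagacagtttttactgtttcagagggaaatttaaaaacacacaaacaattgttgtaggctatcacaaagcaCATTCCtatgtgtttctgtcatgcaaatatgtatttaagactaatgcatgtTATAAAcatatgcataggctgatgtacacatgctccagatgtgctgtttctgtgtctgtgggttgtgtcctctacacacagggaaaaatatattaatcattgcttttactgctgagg
Tnc: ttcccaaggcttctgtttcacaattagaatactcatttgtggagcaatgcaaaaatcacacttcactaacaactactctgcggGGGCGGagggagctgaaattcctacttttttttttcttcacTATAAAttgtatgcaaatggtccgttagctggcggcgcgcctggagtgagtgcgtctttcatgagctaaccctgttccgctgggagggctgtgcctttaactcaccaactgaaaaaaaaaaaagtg
TATAAA stands in all 4 windows, in Thbs2 on the opposite strand, although 3 of the genes rose and Tnc was not called. Its distance from the start differs between the windows, and whether any match works as a TATA box was not tested. Plod1, which rose 1.55-fold, also had TATAAA in its window, which is not shown. A further Postn window, at an upstream annotated start, held none of the motifs. Over all members TATAAA was in 19.4% of the windows, against 12.4% of 32851 windows of all genes. GGGCGG was in 64.5% of the member windows, against 32.7% of all windows, and the median GC content was 59.2% in member windows and 52.4% in all. CCAAT was in 32.3% and 33.8%, GGAATG in 9.68% and 12.6%, and TGANTCA in 3.23% and 6.75%. These shares describe letters in these windows and were not tested.

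Ratios between genes of the same library do not depend on the scaling between libraries. For 11 pairs of chains or enzymes the ratio was compared between midkine and control cultures with a two-sided exact permutation test, whose smallest p with 3 against 3 samples is 0.1. The groups did not overlap for 6 pairs (exact p = 0.10, 0.183 adjusted over the 11 pairs), and overlapped for 5. How often ratios of other gene pairs lie without overlap was not counted, so the 6 have no background share. Of single genes tested 25.1% lay above in all midkine libraries and 26.2% below. Because capture at 3' ends can differ between genes, only the difference between groups is read from a ratio. No adjusted value in this family passed 0.05, which this number of samples does not allow.

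Both pairs with Col1a1 were without overlap. The ratio of Col1a1 to Col1a2 was 0.934, 1.13 and 0.932 in midkine libraries and 0.695, 0.771 and 0.761 in control libraries, a log2 difference of 0.42. Col3a1 to Col1a1 was lower, at 0.0836 ± 0.00299 in midkine and 0.113 ± 0.0111 in control libraries (SD, n = 3 each). Col6a3 to Col6a1 was 2.72, 2.78 and 2.55 in midkine libraries and 1.67, 1.52 and 1.24 in control libraries, a log2 difference of 0.87. Within collagen VI the other pair, Col6a1 to Col6a2, overlapped between groups (log2 difference 0.16, exact p = 0.60).

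The enzyme pairs without overlap were Loxl2 to Lox and Plod2 to Plod1. Loxl2 to Lox was 0.149, 0.162 and 0.139 in midkine libraries and 0.0732, 0.0680 and 0.0720 in control libraries, a log2 difference of 1.07. Plod2 to Plod1 was 0.831, 0.640 and 0.845 in midkine libraries and 0.535, 0.374 and 0.341 in control libraries. Plod3 to Plod1 overlapped (log2 difference 0.04, exact p = 1.0). Lamb1 to Lamc1 averaged 2.56 ± 0.249 in midkine and 2.01 ± 0.287 in control libraries (SD, n = 3 each), without overlap. The pairs Col5a1 to Col5a2 (log2 difference -0.02, exact p = 0.80), Col4a1 to Col4a2 (0.05, exact p = 0.70) and Nid1 to Nid2 (0.42, exact p = 0.30) overlapped.

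**Figure D3:**
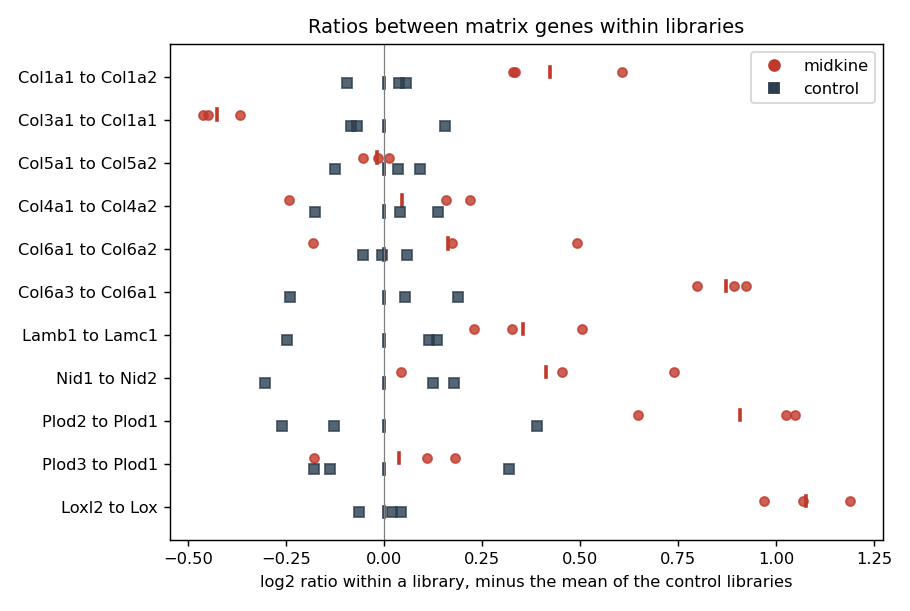
Ratio of 2 matrix genes within each library for 11 pairs, as log2 minus the mean of the control libraries; circles are midkine and squares control libraries, and vertical ticks are group means. Loxl2 to Lox, Plod2 to Plod1 and Col6a3 to Col6a1 lie farthest right (log2 differences 1.07, 0.90 and 0.87), Col3a1 to Col1a1 lies left of its control libraries, and Col5a1 to Col5a2 overlaps with them.

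The summed level of the 39 genes was 69556, 70421 and 67130 normalised read counts in midkine cultures and 26366, 32240 and 31401 in control cultures, 2.30 times as high with midkine. That was 1.09%, 1.19% and 1.09% of the reads in midkine libraries and 0.505%, 0.653% and 0.592% in control libraries. By role the ratio of the group means was 2.69 for fibrillar collagens, 2.32 for proteoglycans, 2.18 for glycoproteins, 2.10 for elastic fibre, 2.02 for processing and crosslinking enzymes and 1.99 for basement membrane. For collagen VI it was 1.12, but 0.821 without Col6a3 and 0.939 scaled to total counts, so its direction rests on 1 gene and on the scaling.

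Stromal markers that do not encode matrix went different ways beside this rise. Of 12 such markers 8 had values; their summed level was 1554 to 1678 normalised read counts in midkine and 1719 to 2039 in control cultures. Cxcl12 carried that direction: without it the other 7 summed to 734 to 769 in midkine and 451 to 566 in control cultures, 1.44 times as high with midkine. Of the 7 tested 3 rose and 1 fell, at a median log2 fold change of 0.43, where 20.9% of all genes tested rose and 21.8% fell. Mcam rose 6.42-fold, Pdgfrb 1.52-fold and Prrx1, a mesenchymal transcription factor, 1.41-fold, while the chemokine gene Cxcl12 fell by 0.68 on the log2 scale. Scaled to total counts 1 of the 7 rose and 2 fell, at a median of 0.18. On that scale 10.8% of all genes tested rose and 40.7% fell, at a median of -0.27. Cdh11 (log2 fold change -0.16), Pdgfra (0.43) and Twist1 (0.22) were not called, and Thy1 was near 0 in every library, with 1.83 to 4.51 in midkine and 0 to 1.87 in control cultures.

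Smooth muscle and myofibroblast markers were higher with midkine. All 6 tested markers rose, where 20.9% of all genes tested did, at a median log2 fold change of 1.88. The list held 8 genes, of which Myh11 had no values and Des was too low to be tested. Des had 8.07 to 13.75 normalised read counts in midkine and 2.83 to 8.34 in control cultures, so its groups overlapped. The 7 measured markers summed to 21977 to 22506 normalised read counts in midkine and 4820 to 5983 in control cultures. Among them Acta2, alpha smooth muscle actin, rose 4.30-fold, Cnn1 7.58-fold, Tagln 4.85-fold and Cald1 3.14-fold. The part of either marker list in the matrix results was not tested.

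**Figure D4:**
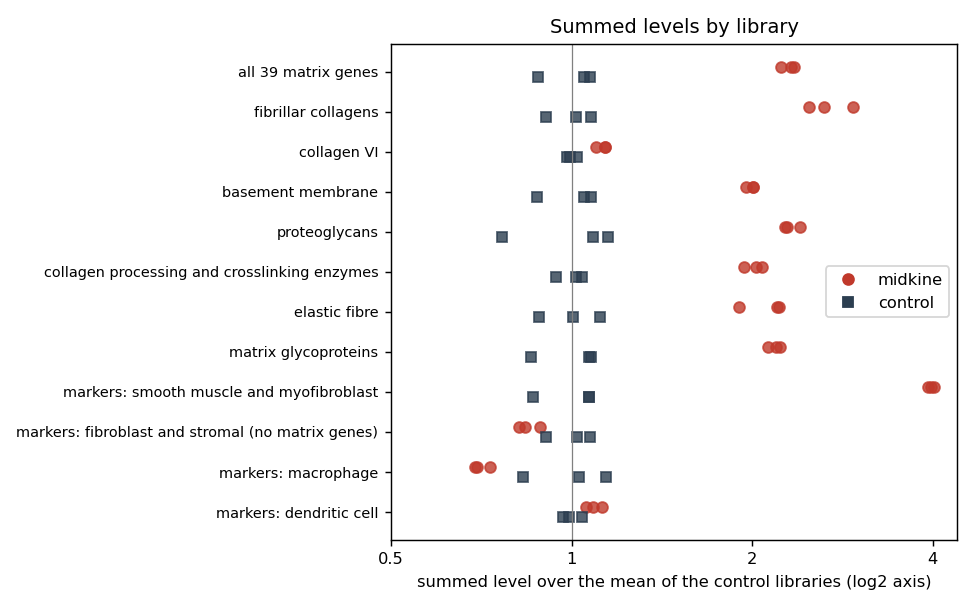
Summed level of the 39 matrix genes, of each role and of 4 marker lists in each library, divided by the mean of the control libraries (log2 axis); circles are midkine and squares control libraries. The matrix roles other than collagen VI lie near 2 or above in midkine libraries, the smooth muscle markers near 4, and the stromal markers that are not matrix genes below 1, where Cxcl12 carries the sum (1.44 without it).

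Markers of the other cell types were mixed, where 20.9% of all genes tested rose and 21.8% fell. Of 8 macrophage markers 2 rose (Adgre1 1.46-fold and Cd68 1.53-fold) and 4 fell. Log2 fold changes of those that fell were -1.27 for Mrc1, -1.21 for C1qa, -0.90 for C1qb and -0.75 for C1qc. The 8 summed to 3210.1 to 3392 normalised read counts in midkine and 3856 to 5299 in control cultures. Of 10 dendritic cell markers 3 rose, Itgax among them (log2 fold change 0.83), and 4 fell, among them Siglech (-3.00), Xcr1 (-1.58) and Clec9a (-1.03). Among 8 listed endothelial markers 4 were tested: Pecam1 rose (log2 fold change 0.65) while Cdh5 (-2.70) and Kdr (-0.92) fell. Only 3 of 8 listed osteoblast markers had values: Runx2 fell, and Ifitm5 rose from few reads (16 over the control libraries). For adipocytes 3 of 6 had values and Lpl and Fabp4 rose, and for chondrocytes 2 of 5 had values and Sox9 fell. Sp7, Bglap, Adipoq, Plin1 and Acan were among those without values, so no shift of these cell types was read from the lists. Among 6 listed platelet markers 4 were tested: Itga2b and Ppbp rose and Pf4 fell. Their part in the matrix results was not tested.

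Matrix genes outside the 42 were mostly higher as well. Of 135 further genes for collagens, their biosynthesis, basement membrane, proteoglycans, elastic fibre and glycoproteins, 69 had values and 60 passed the filter on low values. Of these 60, 41 rose and 4 fell, at a median log2 fold change of 0.93, or 35 and 4 at a median of 0.68 scaled to total counts. Of all genes tested 20.9% rose and 21.8% fell, or 10.8% and 40.7% scaled to total counts. Among the other collagens Col12a1 rose 3.01-fold, Col8a1 2.59-fold, Col11a1 3.51-fold and Col16a1 2.22-fold. Among the other genes of collagen biosynthesis P4ha2, a prolyl 4-hydroxylase subunit needed for a stable triple helix, rose 4.05-fold, Tgm2 2.44-fold, P4ha1 1.91-fold and P3h4 2.37-fold.

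Other basement membrane genes that rose were Agrn (2.51-fold), Smoc2 (5.48-fold), Smoc1 (2.49-fold) and Lamb2 (1.87-fold), and of 3 other proteoglycan genes Ogn (1.70-fold) and Prelp (1.82-fold) rose. Smoc2 was low and spread widely, at 16.9, 44.9 and 30.3 normalised read counts in midkine cultures and 4.72, 5.60 and 3.13 in control cultures. Among glycoproteins Ctgf (6.64-fold), Thbs1 (3.89-fold), Wisp1 (4.53-fold) and Aebp1 (3.59-fold) rose. The 4 that fell, singled out after their values were seen, were Col23a1 (log2 fold change -2.28), P3h2 (-1.08), Tgfbi (-0.76) and Mgp (-0.54), the last with overlapping groups.

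**Figure D5:**
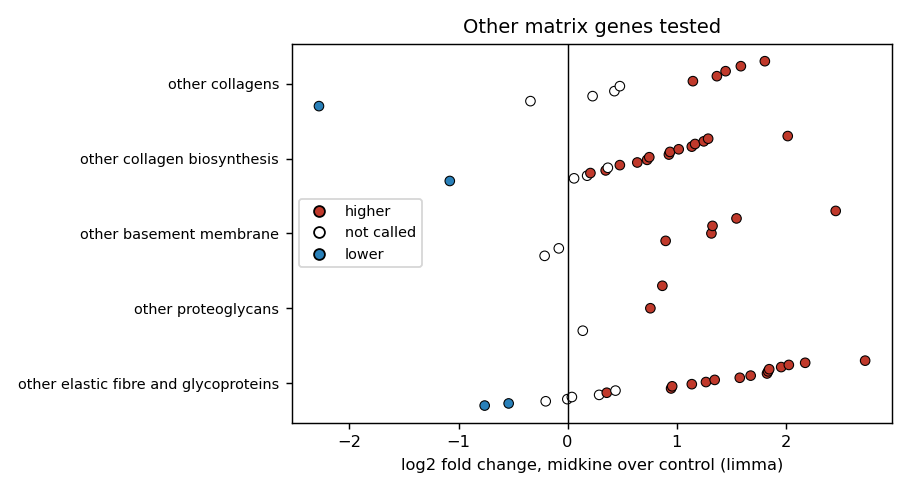
Log2 fold change, midkine over control (limma, n = 3 each), of the 60 further matrix genes that passed the filter on low values, by list; red points rose, blue points fell and open points were not called. In each list most points lie right of 0, and Col23a1 lies farthest left at -2.28.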

How the data were processed

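Libraries of 6 samples were prepared for 3' end counting, per the labels' protocols. The builds GRCm38 and mm10 and tools that include TopHat2 2.0.10, HTSeq and DESeq2 are listed, without a role, in the submitters' processing notes. No source used here gives the annotation or the strand setting. The authors deposited a signal table of 14912 genes in which counts had been divided by each library's size factor; multiplying back gave whole reads for 100% of values (tolerance 1e-06).

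Genes with a mean value of at least 10 (11844) were tested with limma 3.58.1 (R 4.3.3, variance trend) on log2(value + 1), with Benjamini-Hochberg adjustment over all of them and a threshold of 0.05; fold changes on this scale understate low genes. All 39 matrix genes with values passed the filter. On simulated data the fit missed part of the smallest changes, and its share of false calls was above the threshold. Alternatives included other pseudocounts, filters and scalings, edgeR 4.0.16 and DESeq2 1.42.0 on recovered reads, and leaving out each library. Ratios and tables used Python 3.11.15, SciPy 1.17.1 and pandas 2.3.3, and figures matplotlib 3.10.9. Positions are from GENCODE vM21 (GRCm38). All members were described, and up to 4 called genes with the smallest p from each other list. Members, lists and tests were chosen with earlier results of these data known. Intervals and standard errors cover the spread between libraries, with the variance of each gene drawn by limma toward a trend over all genes tested. No library pair of a group agreed within counting noise (chi-square per degree of freedom 2.59 to 11.7).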

Additional observations from a re-analysis of the deposited data

How the results depend on the processing

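Of the 39 matrix genes 32 kept their direction and their side of the threshold in every alternative run (up to 19 per gene, a threshold of 0.1 included), and no called gene changed direction; the exceptions, Col6a1, Col6a2, Nid2, Vcan, Pcolce, Fbn1 and Tnc, are given with their values in the report. The count of matrix genes that rose was 35 to 36 when 1 library was left out, and the count that fell 0 to 1. It was 0 that fell in DESeq2 and 0 in limma without a variance trend, and 2 when scaled to total counts. The call of Col6a2 was lost without midkine replicate 2, its lowest midkine value, or without control replicate 3, its highest control value, and held without any other single library; the cause of the other changes was not tested. Scaled to total counts, 1278 of all genes rose and 4824 fell, against 2481 and 2578, and the summed level of the matrix genes was 1.92 times as high with midkine, against 2.30; by construction this scaling counts ribosomal RNA in the totals, and without those rows it was 2.18. The sums for collagen VI (1.12, but 0.821 without Col6a3 and 0.939 scaled to total counts) and for stromal markers (0.846, but 1.44 without Cxcl12) turned direction under alternatives chosen after seeing the data. Leaving out 1 library gave a summed matrix level 2.17 to 2.39 times as high with midkine, and 6 to 8 pairs of ratios without overlap, against 6. With a block for the replicate number 36 matrix genes rose and 1 fell, as without it, and 2519 of all genes rose and 2641 fell; same-numbered samples did not deviate together (r = -0.01, 0.03 and -0.06), so the numbers were not taken to pair the samples. With 3 samples a group, exact tests of ratios cannot go below 0.1. The lowest count behind a matrix gene was 12 reads in a library.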
